A study of Mus musculus with 30 samples.

Results

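The mitochondrial ribosomal protein genes of the mouse carry the symbols Mrpl and Mrps, for the large and the small subunit of the ribosome that works inside mitochondria. They were chosen by symbol alone, as every transcript cluster (the array's unit of measurement, a set of probes to 1 transcript region) whose gene symbol is Mrpl or Mrps followed by a digit. That gave 76 clusters for 76 genes, 48 named Mrpl and 28 named Mrps, out of 19479 genes with a cluster of their own. No member was left out for low signal, so every count below is out of all 76. A total of 74 members reached the median level of all clusters (6.69, log2 intensity) in at least 1 group, and 2 stayed under it in all 6 groups.

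The study put male C57BL/6 mice, 8 to 10 weeks old, through a stroke model in which the middle cerebral artery was blocked for 45 min, and took myeloid cells by sorting from the ischemic hemisphere after 48 h of reperfusion. The mice were TREM1+/+ (WT) or TREM1-/- (KO); TREM1 is a receptor of neutrophils and monocytes that amplifies inflammatory signals. All groups share the stroke, so no group here is uninjured. Neutrophils were gated as CD45Hi CD11b+ Ly6G+ (4 WT and 5 KO arrays), macrophages as CD45Hi CD11b+ Ly6G- (3 WT and 6 KO) and microglia as CD45Lo CD11b+ (6 WT and 6 KO). The labels also write Ly6G+ for the microglia gate. They call the samples biological replicates and do not say whether cells of several animals were pooled or whether different cell types came from the same mouse. In each case 1 array was hybridised per sample, and values are log2 of the RMA intensity.

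Mitochondria keep a small genome that encodes core subunits of the respiratory chain, and a dedicated ribosome translates them. Every protein of that ribosome is encoded in the nucleus, made in the cytosol and imported. Many have a counterpart in bacterial ribosomes, and others exist only in mitochondria. Neutrophils are known for few mitochondria and for energy metabolism that rests mainly on glycolysis, whereas macrophages and microglia use oxidative phosphorylation more.

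The arrays were checked for what could move with the members. Trem1 levels in neutrophils ranged from 16.82 to 17.51 (WT) and from 15.12 to 16.39 (KO). In macrophages they were 13.59 to 14.19 against 12.81 to 14.39, and in microglia 7.62 to 10.44 against 7.50 to 9.21. The cluster's probes could not be placed relative to the deleted part of the gene, so this signal does not check the genotype labels. Marker genes followed the sort: the mean of 9 neutrophil markers was 12.63 to 13.96 in neutrophils apart from WT replicate 2, at 16.48. It was 7.40 to 8.89 in macrophages and 6.44 to 10.59 in microglia, where KO microglia replicate 2 was the highest. Ly6g was not analysed here. WT neutrophil arrays also differed from KO neutrophil arrays in genes outside the family. Among 1997 clusters at 11 or above in every macrophage and microglia array and less than 1 apart between those cell types in WT mice, WT neutrophil arrays had medians of 12.43 to 12.92, KO neutrophil arrays 12.85 to 13.22 and all other arrays 13.27 to 13.49. In the 4 WT neutrophil arrays, 20, 88, 108 and 200 of these 1997 clusters lay more than 3 below their level in the macrophage and microglia arrays, against 5 to 24 in KO neutrophil arrays. These clusters were chosen for their high level in macrophages and microglia, so only the difference between WT and KO neutrophils is independent of the choice. The mean of 7 monocyte and macrophage markers was 11.70 to 12.65 in WT and 12.38 to 13.63 in KO neutrophils. The mean of 9 microglia markers was 8.99 to 10.51 in WT and 8.70 to 10.80 in KO neutrophils, and 8.10 to 9.67 in macrophages. The mean of 4 connective tissue genes reached 12.98 in replicate 4 of WT neutrophils, against 9.06 to 10.00 in replicates 1 to 3, and KO neutrophils had 7.67 to 9.35.

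The mean level over the 76 members was 8.89 ± 0.22 (SD, n = 4) in WT neutrophils and 9.66 ± 0.23 (n = 5) in KO neutrophils. It was 10.17 ± 0.29 (n = 3) in WT and 10.09 ± 0.22 (n = 6) in KO macrophages, and 10.09 ± 0.32 (n = 6) in WT and 10.27 ± 0.33 (n = 6) in KO microglia. The arrays of both neutrophil groups did not overlap: WT neutrophils read 8.64 to 9.17 and KO neutrophils 9.32 to 9.89. In bulk samples such as these, fewer cells of a type and less RNA per cell cannot be told apart.

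**Figure D1:**
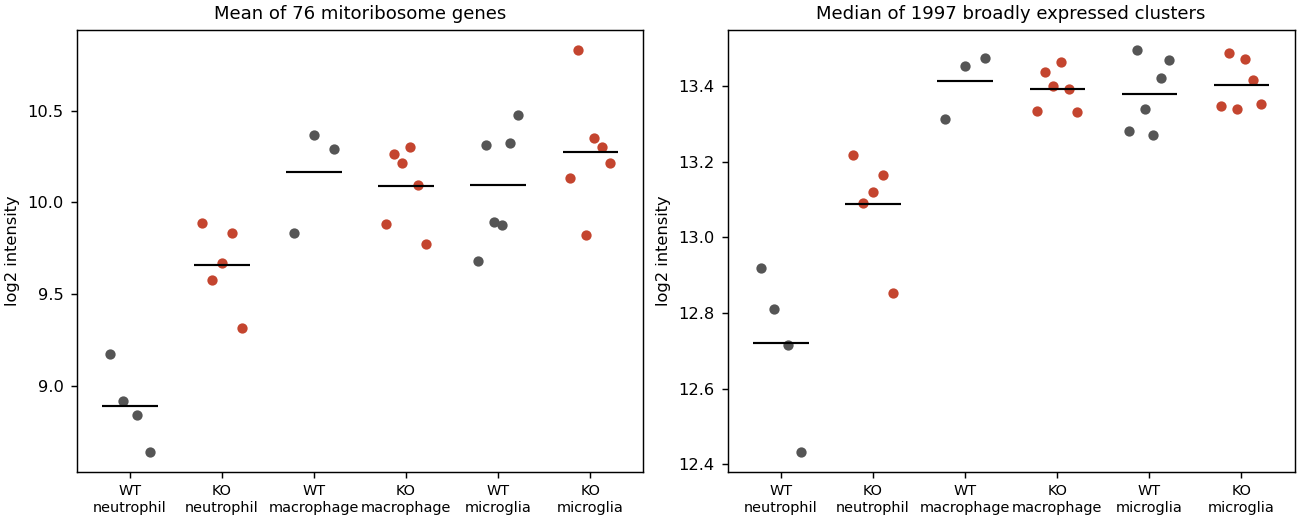
Mean log2 intensity of the 76 mitochondrial ribosomal protein genes (left) and median of 1997 broadly expressed clusters outside the family (right) in each array, by group (WT grey, KO red; horizontal lines are group means). WT neutrophil arrays are lowest on both sides, at 8.64 to 9.17 and 12.43 to 12.92, and KO neutrophil arrays lie between them and the other groups.

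The first comparison asked whether loss of TREM1 goes with a change of these genes in each cell type. In neutrophils, 38 of 76 members (50%) were higher in KO than in WT at an adjusted p under 0.05 (limma over all 22103 clusters, Benjamini-Hochberg), and 1 (1.32%) was lower. Over all clusters, 10.7% were higher and 9.14% lower. The median difference was 0.79 (log2) over the members and -0.13 over all clusters, 66 members (86.8%) lay above 0 where 38% of all clusters did, and 25 of the calls were at least 2-fold. In 23 members (30.3%) every KO array lay above every WT array, against 5.52% of all clusters. Brighter clusters were more often higher: among the 6102 clusters with a mean level of 9 or more, 30% were called higher, and of the 45 members at that level 26 (57.8%) were. The medians at that level were 0.87 for members and 0.36 for all. When the array's level of the 1997 broad clusters entered the fit as a covariate, 2 of the 39 calls were left, and when only the 9 neutrophil arrays were fitted, 21 were left. Without WT neutrophil replicates 2 and 4, a choice made after seeing the data, 19 were called. In neutrophils this level moved with genotype, and the parts of both in these differences cannot be told apart.

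Mrpl23, which lines the exit of the peptide tunnel, had the largest difference. It read 10.47, 9.26, 9.40 and 8.96 in the 4 WT neutrophil arrays and 12.17, 11.43, 11.95, 11.99 and 11.12 in the 5 KO arrays. All KO arrays were above all WT arrays, and the difference was 2.21 (SE 0.32, adjusted p = 2.13e-05). Mrpl3, a protein near the peptidyl transferase centre, read 8.94, 7.75, 6.84 and 6.31 in WT and 10.59, 9.37, 10.04, 9.73 and 8.16 in KO neutrophils. Its groups overlapped in 1 KO array, replicate 5, and the difference was 2.12 (SE 0.42, adjusted p = 0.000859). The call of Mrpl3 was lost in 3 of 21 alternative settings, and its lowest difference there was 0.16. Mrpl27, also a neighbour of the catalytic centre, rose by 1.81 (SE 0.34, adjusted p = 0.000401), from 11.14, 10.41, 9.62 and 9.09 to 12.29, 11.50, 11.78, 12.11 and 11.70.

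Mrpl37 and Mrpl42, both found in the large subunit of mitochondria and not of bacteria, were the only members that stayed called under all 21 alternative settings. Mrpl37 read 13.22, 11.68, 12.57 and 11.52 in WT neutrophils and 14.24, 13.77, 13.87, 14.07 and 13.98 in KO neutrophils. The WT arrays were spread (SD 0.80) and the KO arrays close together (SD 0.18), with no overlap. The difference was 1.74 (SE 0.22, adjusted p = 6.71e-06), and 1.08 (adjusted p = 0.0276) with the level of broad clusters as a covariate. Mrpl42 read 10.75, 10.64, 11.19 and 9.97 in WT and 12.15, 11.99, 12.74, 12.27 and 13.16 in KO neutrophils. Here too every KO array was higher, by 1.82 on average (SE 0.26, adjusted p = 1.6e-05), and by 1.70 (adjusted p = 0.0125) with the covariate. Of the 8 members with the largest differences, 3 remain. Mrpl47 rose by 1.65 (SE 0.32, adjusted p = 0.000651), Mrpl13 by 1.64 (SE 0.33, adjusted p = 0.00102) and Mrps14, a protein of the small subunit's head, by 1.62 (SE 0.24, adjusted p = 3.81e-05). Over the 21 settings Mrpl47 lost its call in 3 (down to 0.66), Mrpl13 in 2 (down to 0.30) and Mrps14 in 1 (down to 0.75). Mrps14 read 14.02, 13.22, 13.09 and 12.86 in WT and 15.42, 14.70, 15.01, 15.17 and 14.29 in KO neutrophils.

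**Figure D2:**
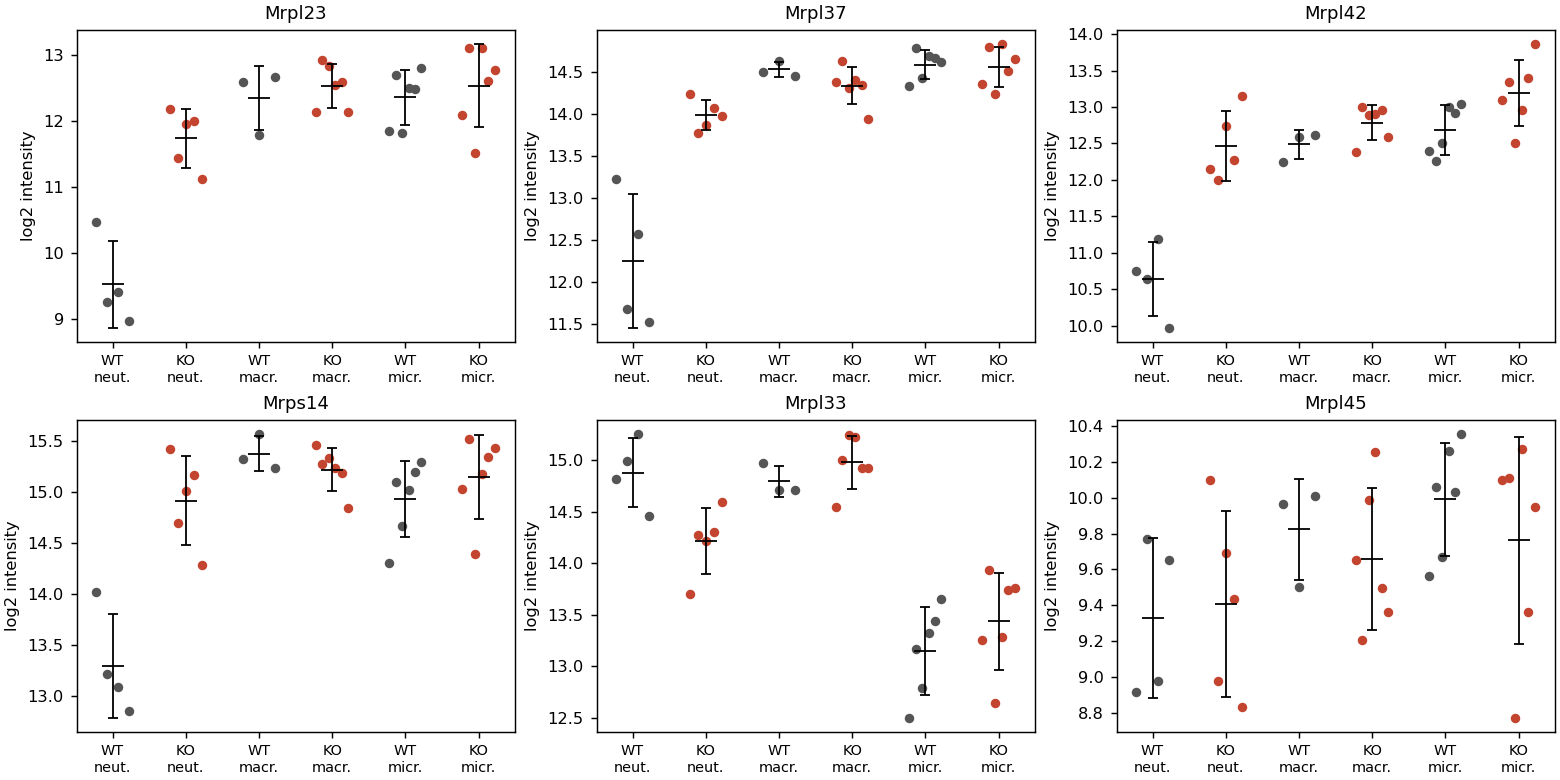
log2 intensity of 6 genes in every array, by group (WT grey, KO red; neut., neutrophils; macr., macrophages; micr., microglia; horizontal bars are means and whiskers SD; vertical axes differ and do not start at 0). Mrpl23, Mrpl37, Mrpl42 and Mrps14 show WT neutrophils below all other groups, Mrpl33 is lowest in microglia, and Mrpl45 overlaps across all groups.

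The promoters of these 2 genes share a short stretch. RefSeq windows of 300 bases (250 before and 50 after the transcription start, build GRCm38.p6) were at hand for 67 of the 76 members, 73 windows in all. The letters AAGATGGCG, the core of the site of the factor YY1, were found on either strand in 8 of 73 member windows (11%), against 1.91% of the 19131 windows of genes on the array. In 6 members the match lies within the 50 bases after the start. These 6 are shown to set the stretch side by side, with the match in capitals, 10 bases before it and up to 10 after, 5′ to 3′ on the gene's own strand. They lie at chr6:71823743-71823771 (Mrpl35, minus strand), chr4:107066822-107066850 (Mrpl37, minus), chr10:95501904-95501932 (Mrpl42, minus), chr17:46111005-46111033 (Mrps18a, plus), chr11:5707652-5707675 (Mrps24, minus) and chr13:99344790-99344818 (Mrps27, plus).
Mrpl35: ggcaggctgcAAGATGGCGgcttccatct
Mrpl37: tgcacgggcaAAGATGGCGgcgtccaggt
Mrpl42: agattgaagcAAGATGGCGagcgcgcggt
Mrps18a: ggtgcgttccAAGATGGCGgccctcaggg
Mrps24: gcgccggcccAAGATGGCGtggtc
Mrps27: ggtgcgctccAAGATGGCGgctcccatgg
The match begins 12 (Mrps18a), 15 (Mrps27), 24 (Mrpl35), 27 (Mrpl37), 28 (Mrpl42) and 37 (Mrps24) bases after the start. In KO against WT neutrophils, Mrpl37, Mrpl42, Mrps18a (1.56, SE 0.36, adjusted p = 0.00302) and Mrps27 (1.28, SE 0.31, adjusted p = 0.00401) rose. With the covariate, Mrps18a was at -0.05 and neither Mrps18a nor Mrps27 was called. Mrpl35 (0.58, adjusted p = 0.0703) and Mrps24 (-0.18, adjusted p = 0.584) did not pass. Over all 8 members with a YY1 match the median difference was 0.93, with 4 called higher. Over the 59 members with a window and no match it was 0.75, with 28 called higher and 1 lower.

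Other letters were more common in the family than on the array too. CCGGAAG, the core of sites for ETS factors such as GABP, was in 34.2% of member windows against 11.8%, and the NRF1 site, GCGC and TGCGC with 1 base of any kind between them, in 17.8% against 6.76%. NRF1 and GABP are known as activators of nuclear genes for mitochondrial proteins. At least 1 of these 3 sites was present in 40 of 67 members (59.7%) and in 20.7% of 15681 genes on the array with a window. CACGTG, the E-box that MYC binds, was in 9.59% against 8.1%, and the TATA box letters TATAAA in 6.85% against 12.3%. No matches of different motifs overlapped in a member window. A match is a description of letters and shows no binding. The ETS match is shown in capitals in the 120 bases before the start of 4 members that rose in KO neutrophils, and across the start of Mrpl33, the 1 member that fell. The stretches are chr11:94653671-94653790 (Mrpl27), chr9:105053148-105053267 (Mrpl3), chr17:46110884-46111003 (Mrps18a), chr13:99344666-99344785 (Mrps27) and chr5:31613841-31613960 (Mrpl33, from -110 to 10), all on the plus strand.
Mrpl27: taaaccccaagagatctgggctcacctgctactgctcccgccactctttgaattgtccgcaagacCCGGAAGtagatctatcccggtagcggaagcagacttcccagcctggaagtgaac
Mrpl3: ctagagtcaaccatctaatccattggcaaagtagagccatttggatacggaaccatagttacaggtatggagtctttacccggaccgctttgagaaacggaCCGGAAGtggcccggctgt
Mrps18a: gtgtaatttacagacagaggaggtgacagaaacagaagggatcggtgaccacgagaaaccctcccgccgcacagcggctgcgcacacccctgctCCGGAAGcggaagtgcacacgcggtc
Mrps27: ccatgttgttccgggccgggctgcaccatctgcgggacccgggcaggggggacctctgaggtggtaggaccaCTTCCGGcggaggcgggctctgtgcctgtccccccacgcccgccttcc
Mrpl33: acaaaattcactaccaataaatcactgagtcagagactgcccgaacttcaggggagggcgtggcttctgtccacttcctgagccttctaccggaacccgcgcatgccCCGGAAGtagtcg
Mrps27 carries the match on the other strand. The same letters thus stand in windows of members called in opposite directions. The fall rests on Mrpl33 alone, a call lost in 13 of 21 settings, and with arrays centred on their median 0 members were lower. With the level of broad clusters as a covariate, none of the members shown was called. With an ETS match, 12 of 25 members were higher and 1 lower in KO neutrophils (median 0.68), and without one 20 of 42 were higher and 0 lower (median 0.76). With an NRF1 match 5 of 13 were higher (median 0.51), and without one 27 of 54 were higher and 1 lower (median 0.81).

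By subunit and origin, the counts in KO against WT neutrophils were as follows. Of 29 large subunit proteins with a bacterial counterpart, 16 were higher and 1 lower (median 0.96). Of 20 large subunit proteins found only in mitochondria, 11 were higher and 0 lower (median 0.79). Of 10 such proteins of the small subunit, 6 were higher and 0 lower (median 0.88), and of 15 small subunit proteins with a bacterial counterpart, 3 were higher and 0 lower (median 0.47). Mrps36 and Mrpl55 were not on the lists used for these classes. Mrps36, now known as a subunit of a dehydrogenase complex of the citric acid cycle, rose by 0.87 (SE 0.23, adjusted p = 0.00944, but 0.0566 without WT neutrophil replicate 3), and Mrpl55 by 1.61 (SE 0.26, adjusted p = 0.000102). The differences between these classes were not tested.

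The stalk of the large subunit, which recruits translation factors, is built from Mrpl10, Mrpl11 and Mrpl12, and its members did not share 1 pattern. Mrpl11, at the stalk's base, rose by 1.45 in KO neutrophils (SE 0.33, adjusted p = 0.00298). Mrpl12, its mobile part, read 7.97, 7.52, 7.64 and 7.88 in WT and 8.63, 8.29, 8.65, 8.52 and 8.58 in KO neutrophils, groups that did not overlap (0.78, SE 0.23, adjusted p = 0.0175). Mrpl11 and Mrpl12 each lost their call in 3 of 21 settings. Mrpl10 was at 6.49 ± 0.18 in WT and 6.37 ± 0.27 in KO neutrophils, under the median of all clusters, and did not pass (-0.12, adjusted p = 0.69). In the small subunit, Mrps15 was called at the edge (0.80, SE 0.29, adjusted p = 0.0498, over 0.05 in 10 of 21 settings), and Mrps12 differed by 1.01 (SE 0.39, adjusted p = 0.0678). Mrps15 was at 5.78 ± 0.29 in WT and 6.59 ± 0.28 in KO neutrophils, both under the median of all clusters.

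Several members are known as genes of inherited defects of mitochondrial translation. Of these, Mrpl3 rose as above, with its call lost in 3 of 21 settings. Mrps22 rose by 1.53 (SE 0.35, adjusted p = 0.00296) with no overlap of arrays and lost its call in 1 setting. In WT neutrophils it was at 5.80 ± 0.75, under the median of all clusters (6.69). Mrps34 rose by 0.93 (SE 0.33, adjusted p = 0.0485, over 0.05 in 14 of 21 settings, with the sign turned in 1 of them). Mrps7 (0.61, adjusted p = 0.216), Mrps16 (0.22, adjusted p = 0.549) and Mrpl44 (0.29, adjusted p = 0.502) did not pass. Mrpl45, which ties the ribosome to the inner membrane, read 8.91, 9.77, 8.98 and 9.65 in WT and 10.10, 8.98, 9.69, 9.43 and 8.83 in KO neutrophils. These arrays fully interleaved (0.08, SE 0.29, adjusted p = 0.871). Mrps30, which despite its symbol sits in the large subunit, was also close in both (0.11, SE 0.20, adjusted p = 0.71).

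The 3 genes named Mrps18 are related copies that ended up at different places: Mrps18a in the large subunit, Mrps18b and Mrps18c in the small one. In KO against WT neutrophils Mrps18a rose by 1.56, while Mrps18b (0.46, adjusted p = 0.195) and Mrps18c (0.45, adjusted p = 0.187) did not pass. The difference of Mrps18a was 1.01 (adjusted p = 0.0217) without WT neutrophil replicate 4, and it lost its call in 4 of 21 settings, with the sign turned under the covariate. Mrps18a read 10.92, 10.10, 9.96 and 8.12 in WT and 11.37, 11.58, 11.59, 11.64 and 10.50 in KO neutrophils, so that KO replicate 5 overlapped WT replicate 1. Between cell types the copies also went separate ways. For Mrps18b, WT microglia had 9.34 ± 0.39 (n = 6), WT macrophages 7.77 ± 0.23 (n = 3) and WT neutrophils 6.68 ± 0.11 (n = 4), and each step down to the next cell type had no overlap. Mrps18c was at 14.35 ± 0.47 in WT microglia, 15.10 ± 0.29 in WT macrophages and 14.27 ± 0.16 in WT neutrophils. It was higher in macrophages than in microglia (0.76, SE 0.25, adjusted p = 0.0195), where Mrps18b was lower (-1.56, SE 0.27, adjusted p = 3.16e-05). The arrays of Mrps18c overlapped in this comparison, and its call did not hold without each single array. In KO arrays Mrps18c was not called between these cell types, while Mrps18b was.

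Mrpl33, a small protein of the large subunit, was the 1 member called lower in KO neutrophils. It read 14.82, 14.99, 15.25 and 14.46 in WT and 13.70, 14.27, 14.22, 14.30 and 14.59 in KO neutrophils. The groups overlapped in KO replicate 5 and WT replicate 4. The difference was -0.66 (SE 0.24, adjusted p = 0.0498), and in 13 of 21 settings it was past the threshold no longer. The other 9 members below 0 were not called and ranged down to Mrps23 at -0.48 (adjusted p = 0.206).

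**Figure D3:**
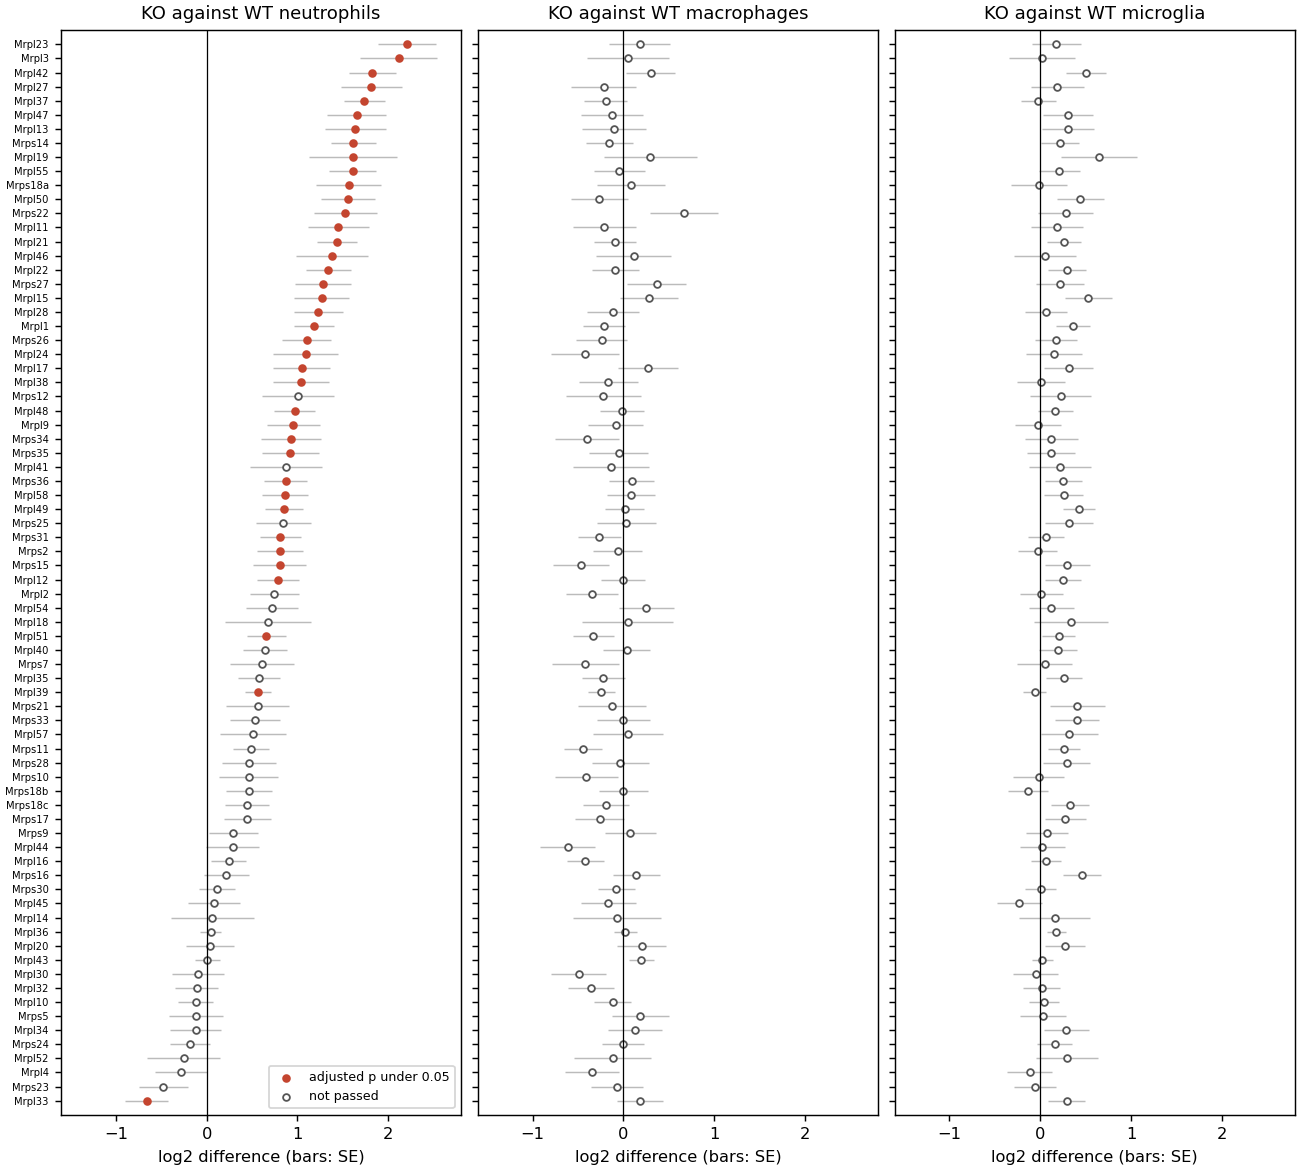
log2 difference of KO minus WT (bars, SE) of each of the 76 members in neutrophils, macrophages and microglia, in the order of the neutrophil difference, with members at an adjusted p under 0.05 filled red. In neutrophils 39 points are filled, from Mrpl23 at 2.21 to Mrpl33 at -0.66, and in the other cell types none.

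In macrophages no member differed between genotypes at an adjusted p under 0.05 by limma, and 2 (2.63%) had an unadjusted p under 0.05, as did 4.66% of all clusters. Of all clusters, 0% were called higher and 0.00452% (1 cluster) lower. The median over members was -0.08, with 27 above 0 (35.5%, against 54.6% of all clusters). The smallest p belonged to Mrps11 (-0.45, SE 0.21), Mrpl16 (-0.42, SE 0.20), Mrpl44 (-0.61, SE 0.30) and Mrps22 (0.67, SE 0.37), each with an adjusted p of 0.998. Mrpl44 read 6.90, 7.97 and 7.90 in WT macrophages, and 6.56, 6.95 and 7.28 as lowest, median and highest of 6 KO arrays, so that WT replicate 1 lay within the KO range. In microglia no member was called either, 3 (3.95%) had an unadjusted p under 0.05, as did 2.92% of all clusters, and 0% of all clusters was called. Here 65 members (85.5%) lay above 0, against 50.4% of all clusters, with a median of 0.19. The smallest p belonged to Mrpl49 (0.42, SE 0.18), Mrpl42 (0.51, SE 0.22), Mrps16 (0.46, SE 0.21) and Mrpl15 (0.53, SE 0.26), each with an adjusted p of 1. KO microglia replicate 2, with the highest member mean of all arrays (10.83), also had the highest neutrophil marker mean of the microglia arrays, and the part of either in these values was not tested.

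Whether the genotype difference itself differed between cell types was tested as an interaction. Against microglia, the difference in neutrophils was larger for 12 members (15.8%) and smaller for 0, while 4.06% and 1.73% of all clusters were called in these directions. Mrpl37 led with 1.76 (SE 0.30, adjusted p = 0.000916), and Mrpl23 followed by p with 2.03 (SE 0.42, adjusted p = 0.00412). Against macrophages, it was larger for 20 members (26.3%) and smaller for 0, against 4.36% and 2.51% of all clusters. Mrpl37 (1.93, SE 0.33, adjusted p = 0.00192) and Mrps14 (1.77, SE 0.36, adjusted p = 0.00483) had the smallest p. Between macrophages and microglia 0 members and 0% of all clusters were called by limma, and 1 member and 3.44% of all clusters had an unadjusted p under 0.05. These counts moved most with the settings: against microglia the count was 6 without KO neutrophil replicate 1 and 19 without KO neutrophil replicate 5, against macrophages it was 10 without WT macrophage replicate 2, and both were 0 with the level of broad clusters as a covariate.

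The second comparison set the cell types against each other within a genotype. In WT mice, 51 of 76 members (67.1%) were lower in neutrophils than in microglia and 3 (3.95%) higher, against 32.3% and 22% of all clusters. The median difference was -1.30 over members and -0.06 over all clusters. Against WT macrophages, 55 members (72.4%) were lower in WT neutrophils and 0 higher, where 22% and 29.6% of all clusters were called, with a median of -1.21 against 0.17. Among clusters with a mean of 9 or more, 54.8% were lower than in microglia and 50.8% lower than in macrophages, and of the 45 members at that level 73.3% and 82.2%. WT neutrophils had the lowest group mean for 62 members. In 49 members the order was WT neutrophils, then KO neutrophils, then both WT macrophages and WT microglia. With the covariate the calls fell to 16 and 6.

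Mrpl3 had the largest gap, from 11.24 ± 0.45 (n = 6) for WT microglia down to 7.46 ± 1.15 (n = 4) for WT neutrophils, a difference of -3.78 (SE 0.41, adjusted p = 5.85e-09). Mrpl13 (-3.03, SE 0.32, adjusted p = 4.02e-09), Mrpl19 (-3.03, SE 0.47, adjusted p = 2.65e-06), Mrps27 (-2.83, SE 0.29, adjusted p = 2.71e-09) and Mrpl23 (-2.83, SE 0.31, adjusted p = 5.6e-09) followed. Then came Mrps18b (-2.66), Mrps7 (-2.56) and Mrpl47 (-2.40). Against macrophages the 8 members with the largest gaps were Mrpl3 (-3.56), Mrpl23 (-2.82), Mrps7 (-2.72), Mrpl13 (-2.61), Mrpl27 (-2.52), Mrpl21 (-2.51), Mrpl50 (-2.46) and Mrpl19 (-2.34). Mrps7, a protein of the small subunit's head, read 8.45, 7.64, 8.06 and 7.96 in WT neutrophils and 10.04, 11.62 and 10.58 in WT macrophages.

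The 3 members higher in WT neutrophils than in WT microglia were Mrpl33, Mrpl52 and Mrps24. Mrpl33 was at 14.88 ± 0.33 in WT neutrophils and 13.15 ± 0.43 in WT microglia, where it read 12.50 to 13.65, with no overlap (1.73, SE 0.23, adjusted p = 2.34e-07). In WT macrophages it was at 14.79 ± 0.15 (n = 3), also above microglia (1.65, SE 0.25, adjusted p = 5.71e-06). Mrpl52 was 1.08 higher (SE 0.39, adjusted p = 0.0187), with overlapping groups, and its call was lost without WT microglia replicate 1 (0.72, adjusted p = 0.0582), WT neutrophil replicate 1 (adjusted p = 0.0536) or WT neutrophil replicate 3 (adjusted p = 0.0538). Mrps24 was 1.02 higher (SE 0.21, adjusted p = 0.000175), at 7.64 ± 0.25 against 6.61 ± 0.37.

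WT macrophages and WT microglia were closer to each other. Of the members, 9 (11.8%) were higher in macrophages and 6 (7.89%) lower, against 9.62% and 27.9% of all clusters, and the medians were -0.01 and -0.25. Higher were Mrpl33, Mrps21 (1.40, SE 0.37, adjusted p = 0.00362), Mrpl52 (1.37, adjusted p = 0.0114), Mrpl34 (1.16, adjusted p = 0.0028), Mrpl1 (0.91, adjusted p = 0.00274), Mrps18c, Mrpl21 (0.74, adjusted p = 0.0122), Mrps24 (0.65, adjusted p = 0.0282) and Mrpl36 (0.56, adjusted p = 0.000665). Lower were Mrps18b, Mrps22 (-1.04, adjusted p = 0.0266), Mrps27 (-0.97, adjusted p = 0.0182), Mrps10 (-0.93, adjusted p = 0.0326), Mrpl49 (-0.81, adjusted p = 0.00422) and Mrpl16 (-0.59, adjusted p = 0.0213). Mrpl36 was at 6.96 ± 0.06 in WT macrophages and 6.40 ± 0.14 in WT microglia, and the lowest macrophage array was above the highest microglia array. Of these 15 calls, 6 held without each single array in turn (Mrpl33, Mrps21, Mrpl52, Mrpl1, Mrpl36 and Mrps18b) and 9 did not. Mrps22 read 5.49, 7.54 and 7.31 in WT macrophages, and without the low replicate 1 its difference was -0.40 (adjusted p = 0.426). Without WT macrophage replicate 2, that of Mrpl34 was 0.69 (adjusted p = 0.0805).

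The KO arrays gave the same cell type comparisons from other arrays, but with the same estimate of each cluster's spread, taken over all 30 arrays. Calls in WT and KO are therefore not independent, and the overlap of calls over all clusters was not computed. In KO mice, 41 members (53.9%) were lower in neutrophils than in microglia and 2 (2.63%) higher, against 32% and 13% of all clusters, with a median of -0.60. The 41 included 40 of the 51 called in WT, which is 78.4% of the WT and 97.6% of the KO list, and 68 of 76 members had the same sign. Mrpl33 (0.78, SE 0.22, adjusted p = 0.00385) and Mrps24 (0.68, SE 0.20, adjusted p = 0.00622) were the 2 higher ones. KO neutrophils were lower than KO macrophages in 23 members (30.3%) and higher in 1 (1.32%, Mrps16, a call lost without any of 8 single arrays), against 15.8% and 15.9% of all clusters. Of the 55 WT calls 20 were among these 23, or 36.4% of the WT and 87% of the KO list. KO macrophages were higher than KO microglia in 7 members (9.21%) and lower in 17 (22.4%), against 11.8% and 31.4%. Shared with WT were 6 of the higher and 5 of the lower calls. Mrps18b (-1.43, SE 0.22, adjusted p = 4.16e-06), Mrpl49 (-1.22, SE 0.18, adjusted p = 1.94e-06) and Mrpl33 (1.54, SE 0.21, adjusted p = 4.12e-07) were among them.

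**Figure D4:**
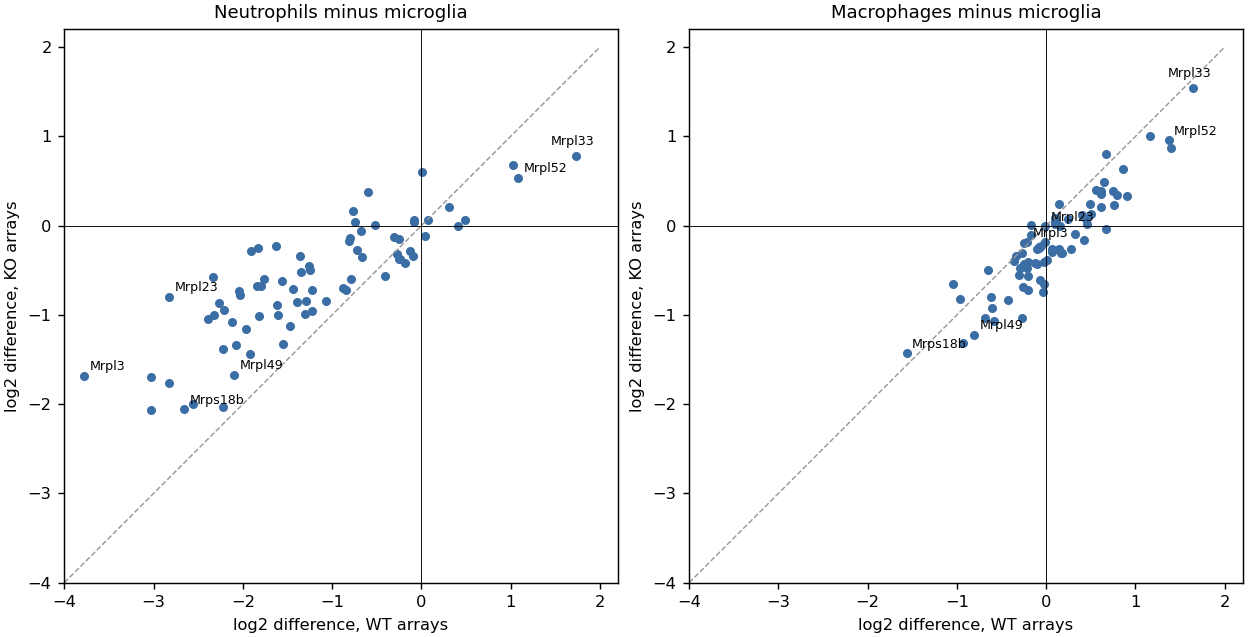
log2 difference between cell types for each of the 76 members in WT arrays (horizontal axis) and in KO arrays (vertical axis), which share no array; the dashed line marks equal differences. For neutrophils minus microglia most points lie below 0 on both axes and above the dashed line, and for macrophages minus microglia they lie on both sides of 0, with Mrpl33 at the upper and Mrps18b at the lower end.

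Mrpl43, the dimmest member, was among those called in no comparison of genotypes or of WT cell types. It was at 4.76 ± 0.30 in WT neutrophils, 4.76 ± 0.03 in KO neutrophils and 4.68 ± 0.21 in WT microglia. At such a level a difference may not be detectable on these arrays. With the members put in 4 bins of 19 by mean level, 6, 8, 12 and 12 were higher in KO neutrophils, from the dimmest to the brightest bin. Clusters in general were also more often higher when brighter, at 30% with a mean of 9 or more against 10.7% of all.

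**Figure D5:**
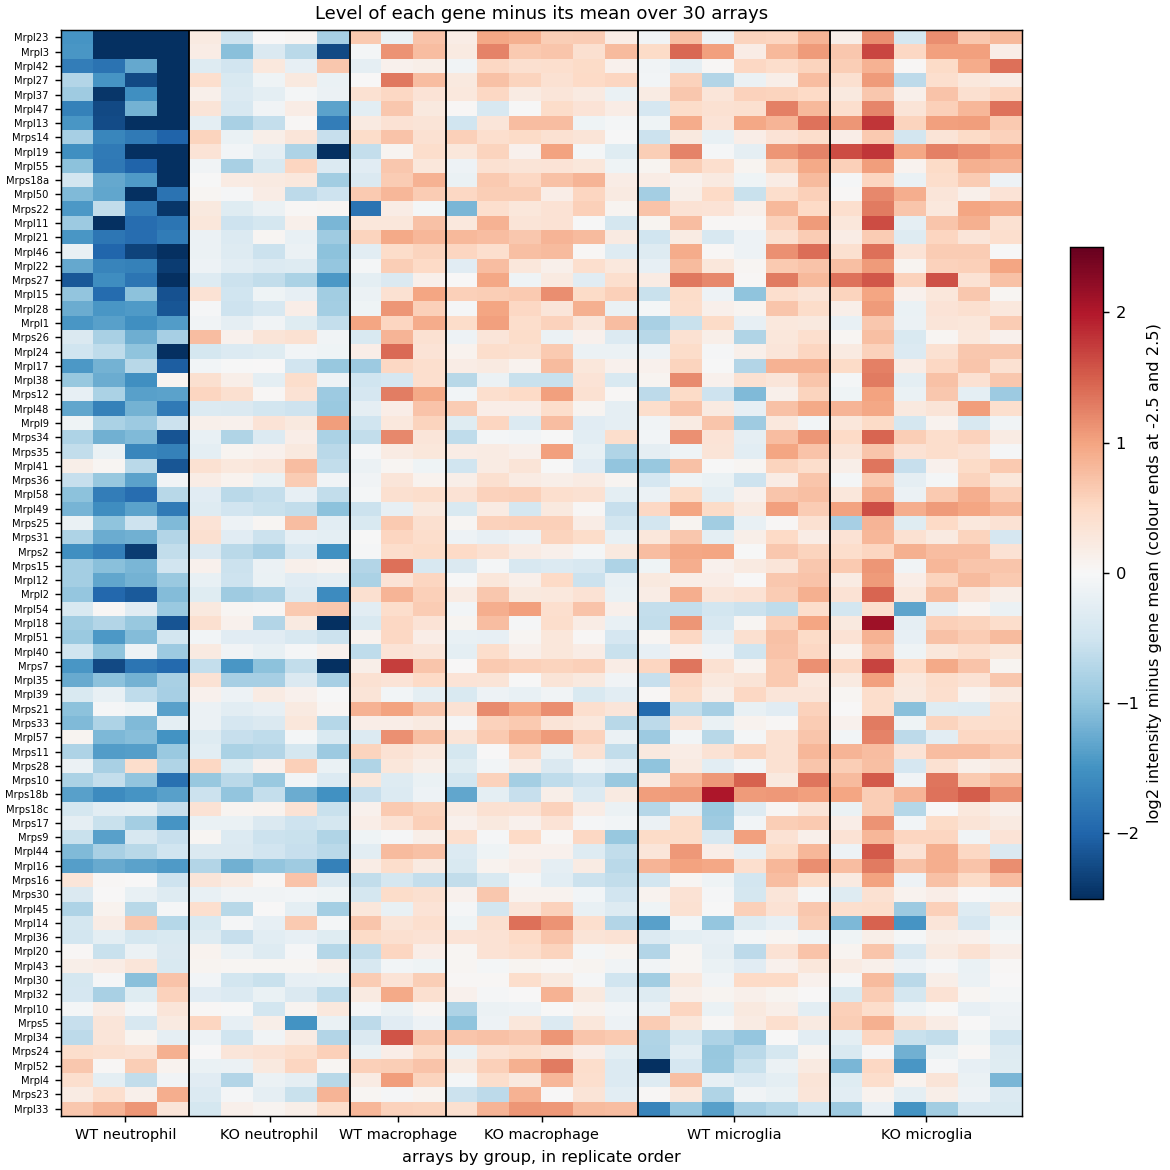
log2 intensity of each of the 76 members (rows, in the order of the KO minus WT difference in neutrophils) in each of 30 arrays (columns, by group), minus the member's mean over all arrays. The 4 WT neutrophil columns are blue for most rows, KO neutrophil columns are paler, and the lowest rows, among them Mrpl33, Mrpl52 and Mrps24, do not share this.

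Other genes of mitochondrial gene expression were measured from lists. Over all clusters, 10.7% were higher and 9.14% lower in KO than in WT neutrophils. Among clusters with a mean of 9 or more, 30% were higher and 6.31% lower. Of 14 mitochondrial translation factors, 9 were higher and 0 lower in KO than in WT neutrophils (median 0.95). All 14 were lower in WT neutrophils than in WT microglia. In that comparison 32.3% of all clusters were lower, and 54.8% of those with a mean of 9 or more. Tufm, the elongation factor that brings charged tRNA to the ribosome, was at 10.57 ± 0.45 in WT and 12.16 ± 0.50 in KO neutrophils (1.59, SE 0.25, adjusted p = 5.38e-05). Gfm1 (1.05, adjusted p = 0.0123, but 0.0765 without WT neutrophil replicate 4 and 0.0509 without KO neutrophil replicate 1), Mrrf (1.30, adjusted p = 0.004) and Mtrf1 (1.52, adjusted p = 0.00177) rose too. Of the called factors checked with single neutrophil arrays left out, Guf1, Letm1, Mtif2, Mtif3 and Oxa1l also lost their call without some arrays. Of 9 genes of mitochondrial transcription and RNA handling, 9 were higher (median 1.16), and the same 9 were lower in WT neutrophils than in WT microglia. Among them were Pnpt1, an RNA-degrading enzyme (1.67, SE 0.21, adjusted p = 4.5e-06), Slirp (1.00, SE 0.15, adjusted p = 3.94e-05), Supv3l1 (1.28, adjusted p = 0.00786) and Tefm, an elongation factor of transcription (2.04, SE 0.37, adjusted p = 0.000327). Elac2, Lrpprc, Polrmt and Tfam, also in this list, lost their call higher in KO neutrophils without some single arrays. Of 24 factors of ribosome assembly and rRNA modification, 7 were higher and 0 lower (median 0.34), led by Fastkd2 (2.36, SE 0.40, adjusted p = 0.00014). Gtpbp10, Mtg1 and Tfb1m among the called ones lost their call without some single arrays. Of 16 mitochondrial aminoacyl-tRNA synthetases, 5 were higher and 0 lower, with a median of -0.06. Yars2 (2.26, adjusted p = 0.00132, and 1.37 without WT neutrophil replicate 4) and Iars2 (1.27, adjusted p = 0.00803) were among these 5. Nars2 and Rars2 were called with all arrays and lost their call without WT neutrophil replicate 4. Of 4 mitoribosome proteins with other symbols, Chchd1 (0.74, adjusted p = 0.0145) and Gadd45gip1 (0.58, adjusted p = 0.00689) rose, and Dap3 (0.57, adjusted p = 0.0743) and Ptcd3 (0.52, adjusted p = 0.243) did not pass.

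Of 9 transcription factors of mitochondrial genes, 1 was higher and 1 lower in KO neutrophils (11.1% each way, near the 10.7% and 9.14% of all clusters; median 0.36). Myc, a driver of growth genes, was at 7.11 ± 1.59 in WT and 9.86 ± 0.51 in KO neutrophils (2.75, SE 0.56, adjusted p = 0.000944), and at 10.72 ± 1.06 in WT macrophages and 12.42 ± 0.68 in WT microglia. Ppargc1a, a coactivator of mitochondrial biogenesis, fell by 0.89 on the log2 scale (SE 0.21, adjusted p = 0.00414). Gabpb1, a subunit of GABP, differed by -0.97 (SE 0.42, adjusted p = 0.0976). For comparison, 32 of 54 cytosolic ribosomal protein genes were higher and 0 lower in KO neutrophils (median 0.50), and 39 of 85 nuclear genes of the respiratory chain and ATP synthase were higher and 2 lower (median 0.58). Both lists are bright, and of all clusters with a mean of 9 or more 30% were higher and 6.31% lower (median 0.36). Rpl3 rose by 1.30 (SE 0.19, adjusted p = 3.07e-05) and Ndufc2 by 1.67 (SE 0.19, adjusted p = 2.34e-06). Rps6, Rps13, Rpl27, Ndufs7 and Ndufv3 of these comparison lists lost their call without some single arrays. In macrophages and microglia 0 genes of any of these lists were called between genotypes. The part of the broad clusters' level in these list counts was not tested.

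Many members start back to back with another gene. A start on the opposite strand at most 300 bases upstream was found for 21 of 67 members (31.3%) and for 10.8% of 15681 genes on the array. Of these 21 members 9 were higher in KO neutrophils (median 0.75), and of 17 measured partners outside the family 2 were higher and 0 lower (median 0.26). That share, 11.8%, is near the 10.7% of all clusters called higher. The 2 were Psma2, a proteasome subunit next to Mrpl32 (0.95, SE 0.23, adjusted p = 0.00509, and 0.59 without WT neutrophil replicate 4), and Tcp1, a chaperonin subunit next to Mrpl18 (1.26, SE 0.32, adjusted p = 0.00614). Mrpl32 (-0.11, adjusted p = 0.773) and Mrpl18 (0.68, adjusted p = 0.318) themselves did not pass. Mrpl27 rose by 1.81, and its partner Eme1, 48 bases away, differed by 0.12 (SE 0.22, adjusted p = 0.728). Mrpl37 rose by 1.74, and Cyb5rl, 128 bases away, differed by 0.26 (SE 0.21, adjusted p = 0.407). In 1 pair both genes are members: Mrps11 and Mrpl46 start 42 bases apart. Mrpl46 rose by 1.38 in KO neutrophils (SE 0.40, adjusted p = 0.0147, but 0.0849 without WT neutrophil replicate 4 and 0.0549 without replicate 3), and Mrps11 differed by 0.49 (SE 0.20, adjusted p = 0.0797). Both were lower in WT neutrophils than in WT microglia, by -2.32 (SE 0.38, adjusted p = 6.95e-06) and -1.55 (SE 0.19, adjusted p = 7.29e-08).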

How the data were processed

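RNA of the 30 sorted samples was hybridised to Affymetrix Clariom HT arrays, per the labels' protocols. The authors deposited linear intensity values, made with RMA per the submitters' processing notes. Its version, the arrays it was run on and the genome build are not given in the sources used here. Log2 was taken with no pseudocount, and no cluster was filtered. Symbols came from the platform annotation (19508 of 22103 clusters with 1 symbol), with the brightest cluster per gene. limma 3.58.1 (R 4.3.3) fitted 1 mean per group over all 30 arrays (24 residual df), and p-values were adjusted by Benjamini-Hochberg over 22103 clusters, with a call at 0.05. The method was tested on simulated data with the same spread in all groups and no shift of whole arrays. That test does not cover the low level of broad clusters in WT neutrophil arrays. The members and lists were chosen with earlier results of these data known. Named are the 8 called members with the largest difference in each direction of the genotype and WT cell type comparisons, or the 4 with the smallest p where none was called, the 3 brightest and 3 dimmest, and members with a stated role. Others named beside a promoter or partner gene were chosen after their values were seen. Each p-value tests a difference of means against a spread estimated over the arrays of all groups together, which need not match the spread within 1 group. Precision is limited by how many arrays each group has. Alternatives changed normalization, filters, weights, arrays and a covariate.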

Additional observations from a re-analysis of the deposited data

Results flagged for a closer look

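In 41 named members and in the mean over all 76, 210 groups of 4 to 6 arrays were checked for an array far from the rest by Dixon's ratio, and 15 stood out, 8 high and 7 low. Chance flags about 1 in 20 groups. In KO macrophages the arrays far from the others were replicate 1 for Mrpl10 (5.63, next 6.24) and Mrps22 (6.21, next 7.42), replicate 2 for Mrps10 (8.77), replicate 4 for Mrpl15 (10.99) and Mrpl34 (11.78), and replicate 6 for Mrpl21 (12.05). In KO microglia they were replicate 2 for Mrpl49 (12.57) and Mrps34 (10.38), and replicate 3 for Mrps11 (11.64), Mrps15 (6.58) and Mrps24 (5.93). In WT microglia they were replicate 6 for Mrps18a (12.17) and replicate 3 for Mrps18b (10.13, next 9.21). In neutrophils they were KO replicate 5 for Mrps18a (10.5) and WT replicate 4 for Mrps24 (8.00).

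The genotype difference differed between cell types by the interaction test in limma. Neutrophils exceeded microglia in 12 members. Those named are Mrpl3 by 2.10, Mrpl23 by 2.03, Mrpl37 by 1.76, Mrpl27 by 1.63, Mrps18a by 1.58, Mrps14 by 1.40, Mrpl42 by 1.32 and Mrpl21 by 1.17, with adjusted p from 0.000916 to 0.0455. Neutrophils exceeded macrophages in 20 members. Those named are Mrpl3 by 2.07, Mrpl23 by 2.03, Mrpl27 by 2.03, Mrpl37 by 1.93, Mrpl50 by 1.82, Mrpl47 by 1.78, Mrps14 by 1.77, Mrpl13 by 1.74, Mrpl11 by 1.66, Mrpl42 by 1.52, Mrpl21 by 1.52, Mrpl1 by 1.40 and Mrps11 by 0.94, with adjusted p from 0.00192 to 0.0474. Without each single array in turn, 5 of the 12 and 9 of the 20 calls held.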

How the results depend on the processing

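The 39 calls in KO against WT neutrophils became 21 with only the neutrophil arrays fitted and 2 with the level of broadly expressed clusters as a covariate. In alternatives chosen after seeing the data they became 20 (neutrophil arrays only, WT neutrophil replicate 4 left out) and 19 (WT neutrophil replicates 2 and 4 left out). With the covariate the other counts were 16 (WT neutrophils against WT microglia), 6 (WT neutrophils against WT macrophages), 23 (KO neutrophils against KO microglia), 10 (KO neutrophils against KO macrophages) and 0 for both interactions with neutrophils. Quantile normalization over all arrays gave 27 for KO neutrophils against KO microglia, 15 against KO macrophages and 13 for the interaction with macrophages, and within cell types that interaction gave 12. Centring each array on its median gave 25 for KO neutrophils against KO microglia, moved the median of all clusters in KO against WT neutrophils from -0.13 to -0.01 and raised the share of all its calls that are higher from 54% to 71.6%, with 43 members higher and 0 lower. Array weights gave 19 for the interaction with microglia, and the compared arrays alone gave 7 and 11 for the interactions with microglia and macrophages.

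With single arrays left out, the counts were 29 to 44 (KO against WT neutrophils), 50 to 56, 45 to 58 and 10 to 16 (WT neutrophils against microglia, against macrophages, and WT macrophages against microglia), 31 to 44, 17 to 27 and 18 to 24 (the same in KO), and 6 to 19 and 10 to 28 (interactions with microglia and macrophages). The interaction with microglia went to 7 without WT neutrophil replicate 3, KO neutrophil replicate 4 or WT microglia replicate 2, 6 without KO neutrophil replicate 1 and 19 without KO neutrophil replicate 5. The interaction with macrophages went to 13 without WT neutrophil replicate 3 or KO macrophage replicate 6, 12 without KO neutrophil replicate 4, 11 without KO neutrophil replicate 1 or WT macrophage replicate 3, and 10 without WT macrophage replicate 2. In macrophages and microglia the genotype count was 0 in every setting. Of the 39 calls in KO against WT neutrophils, 24 held without each single array in turn.

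With group means taken out, same-numbered WT and KO arrays of a cell type correlated from -0.20 to 0.26 (13 pairs, 4 over 0.1). Same-numbered arrays of 2 cell types of a genotype correlated from -0.16 to 0.16 (26 pairs, 2 over 0.1). Whether cell types shared mice cannot be told from these values. A block for replicate number gave 40 calls in KO against WT neutrophils. A different block, for replicate number within genotype, gave 2 and 6 in the interactions with microglia and macrophages.

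Signs of some members turned in KO against WT neutrophils, with the covariate also those of Mrpl19, Mrps18a and Mrps34, which had been called higher. Under quantile normalization, over all arrays and within cell types, Mrpl10 read 0.024 and 0.018, Mrpl45 -0.22 and -0.22, Mrps16 -0.0203 and -0.018, and Mrps30 -0.050 and -0.0435. Centring gave 0.0004 for Mrpl10, and weights -0.10 for Mrpl43. With the covariate Mrpl16 read -0.26, Mrpl19 -0.57, Mrpl36 -0.036, Mrpl43 -0.30, Mrpl44 -0.30, Mrpl45 -0.27, Mrps10 -0.037, Mrps12 -0.62, Mrps16 -0.65, Mrps18a -0.054, Mrps18c -0.31, Mrps21 -0.073, Mrps30 -0.26, Mrps34 -0.30 and Mrps7 -0.65. With single arrays left out, Mrpl45 ranged from -0.10 to 0.22, Mrpl43 from -0.14 to 0.090 and Mrpl34 from -0.30 to 0.022. Without WT neutrophil replicates 2 and 4, Mrpl10 read 0.031, Mrpl34 0.046 and Mrpl43 -0.15, and in neutrophil arrays without WT replicate 4, Mrpl43 read -0.14. The cause of these moves was not tested. Of the differences of named members over the settings, 741 kept direction and side of the threshold, 79 lost the call, 5 gained it and 35 turned.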
